A study of Mus musculus with 6 samples.

Results

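The Cyp4 genes encode cytochrome P450 enzymes of the endoplasmic reticulum that add a hydroxyl group to the far (omega) end of fatty acids and of lipids made from them. Such a P450 holds a heme whose iron is bound by a cysteine, and takes its electrons from the reductase Por. The hydroxylated fatty acid is then oxidized to a dicarboxylic acid and shortened in peroxisomes. In rodent liver, Cyp4a10 and Cyp4a14 are classical targets of the fatty acid receptor PPAR-alpha, Cyp4a12a is typical of males, and Cyp4f enzymes are known for inactivating leukotriene B4 and for handling vitamins E and K.

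The 10 genes described are Cyp4a10, Cyp4a31, Cyp4a32, Cyp4a14, Cyp4a12a, Cyp4a12b, Cyp4f13, Cyp4f14, Cyp4f15 and Cyp4v3, taken by symbol from the 34866 genes of the count table. They are 6 Cyp4a, 3 Cyp4f and 1 Cyp4v gene, all protein coding. Polyadenylated liver RNA was sequenced from 8-week-old male C57BL/6 mice given iD1, a compound known here by its code name only, or vehicle, with 3 libraries per group. The labels give an intraperitoneal route for the drug but no dose, time or target, and the treatment label of the vehicle libraries reads untreated although their titles name a vehicle. One vehicle column has a number that no sample title carries, and it is called the unnumbered vehicle library. The mice had food at will and a 12-hour light-dark cycle. Whether the 3 libraries of a group stand for 3 animals is not stated in the labels. The p-values set the group difference against variation estimated from these libraries, which may not stand for variation between animals.

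Totals ranged from 23515571 to 35207596 estimated counts in the iD1 libraries and from 27160894 to 37613549 in the vehicle libraries. Mitochondrially encoded genes took 8.68% to 10.3% of the counts in iD1 and 10.6% to 13.6% in vehicle libraries. All 8 hepatocyte markers were detected, with summed levels of 99299 to 110048 CPM in iD1 and 77735 to 102721 CPM in vehicle libraries, and 3 of them were called higher, against 1 or 2 with any 1 library left out. The 8 Kupffer cell markers summed to 98.5 to 138 CPM in iD1 and 102 to 172 CPM in vehicle libraries, with none called in edgeR's test. The neutrophil markers, 5 of 8 tested, summed to 4.33 to 12.96 CPM in iD1 and 1.49 to 2.07 CPM in vehicle libraries, with 3 called higher, against 1 to 4 with 1 library left out. Of all 13718 tested genes, 8.42% were called higher and 8.3% lower. The part of these marker levels in the Cyp4 results was not tested. In bulk tissue, fewer cells of a type and less RNA per cell cannot be told apart.

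The 6 Cyp4a members lie together on chromosome 4 of GRCm38 (GENCODE M21). Cyp4a12a at chr4:115299046-115332815 and Cyp4a12b at chr4:115411624-115439034 are on the plus strand, Cyp4a14 at chr4:115486200-115496142 is on the minus strand, and Cyp4a10 at chr4:115518264-115533649, Cyp4a31 at chr4:115563649-115579015 and Cyp4a32 at chr4:115600969-115621602 are on the plus strand. The Cyp4f members lie on chromosome 17, with Cyp4f15 at chr17:32685627-32703352 on the plus strand, and Cyp4f14 at chr17:32905070-32917342 and Cyp4f13 at chr17:32924688-32947402 on the minus strand. Cyp4v3 stands alone at chr8:45304944-45333216 on the minus strand.

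The stretch that binds the heme shows how the members divide, and was read from the GENCODE M21 coding sequence of each gene. The capitals mark the codon of the cysteine that holds the heme iron.
Cyp4a10: ttctcaggaggagccaggaacTGCattggg
Cyp4a31: ttctcaggaggagccaggaacTGCattggg
Cyp4a32: ttctcaggaggagccaggaacTGCattggg
Cyp4a14: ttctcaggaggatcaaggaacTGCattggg
Cyp4a12a: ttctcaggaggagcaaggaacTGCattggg
Cyp4a12b: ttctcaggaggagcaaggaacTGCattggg
Cyp4f13: ttctcagcggggaccaggaacTGCatagga
Cyp4f14: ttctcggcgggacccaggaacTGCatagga
Cyp4f15: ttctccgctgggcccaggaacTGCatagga
Cyp4v3: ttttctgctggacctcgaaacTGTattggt
All 10 members carry the cysteine, at residue 456 of 509 in Cyp4a10 and at residue 467 of 525 in Cyp4v3. Cyp4a10, Cyp4a31 and Cyp4a32 share the stretch base for base, as do Cyp4a12a and Cyp4a12b. In the I helix, CYP4 enzymes usually carry a glutamate through which the heme is bound to the protein. The stretch is shown for the member that lacks it and for its neighbour, with the codon at that place in capitals.
Cyp4f13: GGAggccatgacaccacc
Cyp4f14: GAGggccatgacacgaca
The codon encodes glutamate in 9 members and glycine in Cyp4f13, at residue 327.

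Some members are close copies, which limits what their single values can show. Over the coding bases, Cyp4a10 was 96.6% identical to Cyp4a31 and 97.2% to Cyp4a32, and Cyp4a12a was 98.5% identical to Cyp4a12b. Cyp4a14 was 75.1% identical to Cyp4a10, and Cyp4f14 80.0% to Cyp4f15. The coding sequence around the heme cysteine, coding bases 1306 to 1425 of Cyp4a10, shows the contrast. The capitals mark bases of Cyp4a14 that differ from Cyp4a10.
Cyp4a10, Cyp4a31 and Cyp4a32: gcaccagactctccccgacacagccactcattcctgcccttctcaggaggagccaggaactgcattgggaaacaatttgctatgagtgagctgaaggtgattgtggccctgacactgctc
Cyp4a14: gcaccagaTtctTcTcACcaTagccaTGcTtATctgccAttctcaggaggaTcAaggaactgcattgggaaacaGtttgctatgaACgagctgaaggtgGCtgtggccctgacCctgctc
The first 3 genes do not differ at any of these 120 bases, and Cyp4a14 differs at 20. Reads from such a stretch fit all 3 copies, and an estimated count can divide them between the genes. The copies are told apart where they vary, at 77 coding bases in all, of which 9 fall within coding bases 200 to 259. The capitals mark bases that differ from Cyp4a10.
Cyp4a10: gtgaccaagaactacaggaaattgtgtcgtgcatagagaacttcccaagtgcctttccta
Cyp4a31: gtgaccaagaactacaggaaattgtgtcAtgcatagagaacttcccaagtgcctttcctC
Cyp4a32: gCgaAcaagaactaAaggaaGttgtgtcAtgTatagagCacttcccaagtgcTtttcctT

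**Figure D1:**
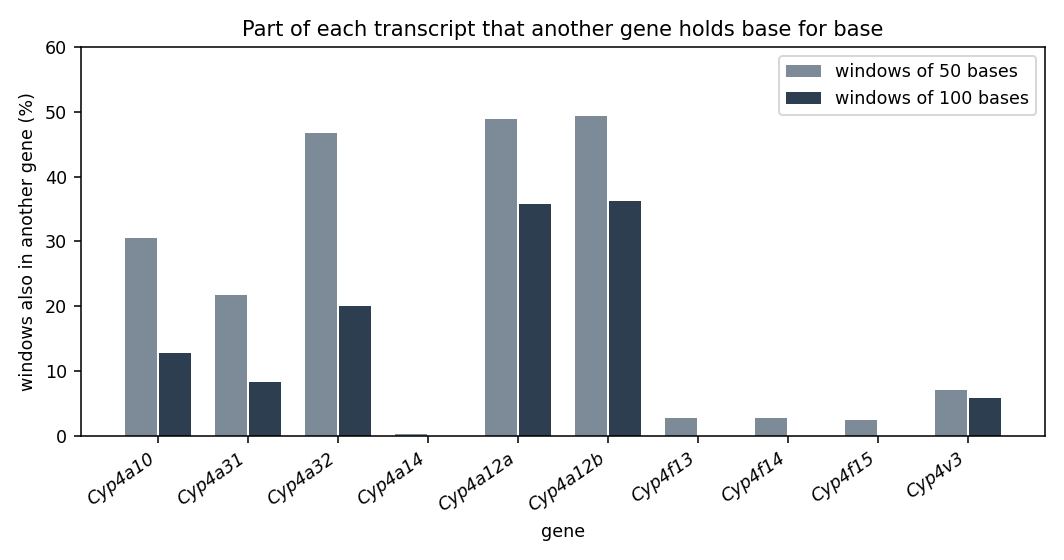
Share of each transcript's windows of 50 bases (grey) and 100 bases (dark) that another gene of the annotation holds base for base, in percent, for the 10 genes. Of the windows of 50 bases, Cyp4a12a and Cyp4a12b shared 48.9% and 49.4%, Cyp4a32 shared 46.8%, Cyp4a10 30.5% and Cyp4a31 21.8%, against 0.245% in Cyp4a14.

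The share of windows that another gene holds base for base measures this for each transcript, as plotted for windows of 50 and 100 bases. Cyp4a14, with 0.245% of its windows of 50 bases shared, and the Cyp4f members, with 2.45% to 2.72%, could be counted nearly on their own. The windows that Cyp4v3 shared, 7.02% of its total, were all held by the predicted gene Gm45753, which lies on the same strand and overlaps it by 313 exonic bases.

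All 10 members had enough counts to be tested. With iD1, 3 members were called higher, Cyp4a10, Cyp4a14 and Cyp4a31, and 0 were called lower at an adjusted p of 0.05 (edgeR's quasi-likelihood F test, adjusted over 13718 genes). Over all tested genes, 8.42% were called higher and 8.3% lower. At an unadjusted p of 0.05, 6 members differed, of which 1, Cyp4f14, was lower. DESeq2 and limma-voom called 0 members lower. The groups did not overlap for 6 members, 5 higher and 1 lower, against 37.2% of all tested genes. The median log2 fold change was 0.41 over the 10 members and 0.0006 over all tested genes. Since Cyp4a10, Cyp4a31 and Cyp4a32 may share reads, as may Cyp4a12a and Cyp4a12b, the members are not all separate measurements in these counts.

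**Figure D2:**
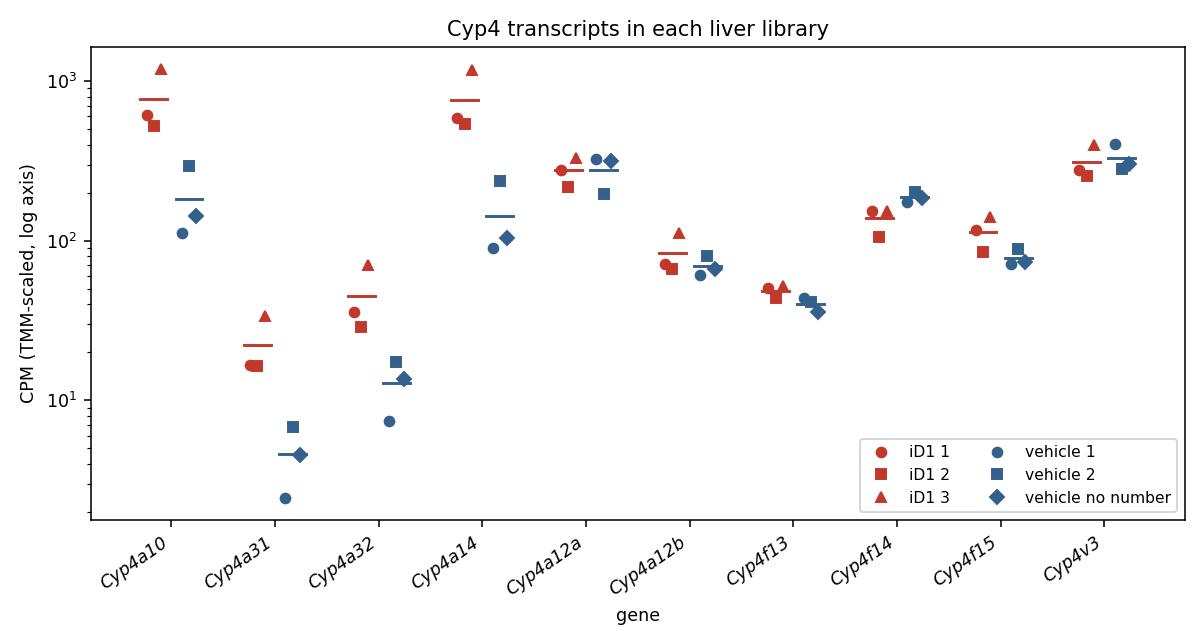
Levels of the 10 genes in CPM scaled by TMM, on a log axis, in each iD1 library (red, left in each pair) and vehicle library (blue, right), with 1 marker per library and a line at the group mean. For Cyp4a10, Cyp4a31, Cyp4a32 and Cyp4a14 the 3 iD1 libraries lie above all 3 vehicle libraries, while for Cyp4a12a, Cyp4a12b, Cyp4f15 and Cyp4v3 the groups overlap.

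Cyp4a10 and Cyp4a14, both hydroxylases of medium-chain and long-chain fatty acids, were the most abundant members in the iD1 livers. Cyp4a10 had 613, 524 and 1193 CPM (read counts relative to the TMM-scaled library total) in iD1 libraries 1, 2 and 3, against 112, 292 and 142 CPM in vehicle libraries 1 and 2 and the unnumbered vehicle library. Its level was highest in iD1 library 3 and, among the vehicle libraries, in vehicle library 2, and the groups did not overlap. The mean was 777 ± 363 CPM in iD1 and 182 ± 96.5 CPM in vehicle livers (SD, n = 3 each), a log2 fold change of 2.09 with an SE of 0.48, or 4.27-fold (adjusted p = 0.0335).

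Cyp4a14 had 587, 540 and 1169 CPM in the iD1 libraries and 90.6, 235 and 104 CPM in the vehicle libraries, in the same order. The same libraries stood highest in each group as for Cyp4a10, and the groups again did not overlap. Cyp4a14 averaged 765 ± 351 CPM in iD1 and 143 ± 79.9 CPM in vehicle livers (SD, n = 3 each), a log2 fold change of 2.41 with an SE of 0.49, or 5.33-fold (adjusted p = 0.0238). Of all tested genes, 0.926% were called higher and changed at least 4-fold, as were Cyp4a10, Cyp4a14 and Cyp4a31.

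Cyp4a31 and Cyp4a32, the copies next to Cyp4a10, were present at much lower levels. Cyp4a31 had 16.6, 16.4 and 33.6 CPM in the iD1 libraries, against 2.44, 6.75 and 4.57 CPM in the vehicle libraries. No iD1 library was as low as any vehicle library, and the log2 fold change was 2.26 with an SE of 0.46 (4.78-fold, adjusted p = 0.0262). Cyp4a32 had 35.7, 28.6 and 70.4 CPM in the iD1 libraries, against 7.46, 17.3 and 13.5 CPM in the vehicle libraries. The groups did not overlap here either, but its log2 fold change of 1.81 with an SE of 0.46 did not pass the threshold (adjusted p = 0.0511). Since reads may be divided between these copies, the single values of Cyp4a10, Cyp4a31 and Cyp4a32 are uncertain.

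The summed counts of the 3 copies do not depend on how reads were divided among them. The sum was 665, 570 and 1297 CPM in the iD1 libraries and 122, 316 and 160 CPM in the vehicle libraries. The groups did not overlap, and the log2 fold change of the sum was 2.08 with an SE of 0.47 (adjusted p = 0.0316). Cyp4a14, which shares few windows with any other gene, showed a change of similar size. The number of Cyp4a14 counts per Cyp4a10 count was 0.957, 1.03 and 0.98 in the iD1 libraries and 0.812, 0.806 and 0.733 in the vehicle libraries. The groups did not overlap in this ratio, which was outside the planned results and not tested.

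Cyp4a12a, which makes the vasoactive eicosanoid 20-HETE in mouse kidney, and its copy Cyp4a12b did not pass the threshold. Cyp4a12a had 278, 218 and 331 CPM in the iD1 libraries and 323, 195 and 318 CPM in the vehicle libraries. The groups overlapped over nearly their whole range, with vehicle library 2 lowest of all 6 libraries, and the log2 fold change was -0.02 with an SE of 0.22 (adjusted p = 0.971). Cyp4a12b had 71.5, 66.4 and 112 CPM in the iD1 libraries and 61.3, 79.8 and 66.2 CPM in the vehicle libraries. iD1 library 3 stood above the other libraries, and the log2 fold change was 0.27 with an SE of 0.20 (adjusted p = 0.409). The sum of both copies, free of the division of reads between them, was 349, 284 and 444 CPM in the iD1 libraries and 385, 275 and 384 CPM in the vehicle libraries, a log2 fold change of 0.04 with an SE of 0.20 (adjusted p = 0.906).

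The groups stood apart in the make-up of the Cyp4a transcripts, which restates the changes above as shares of the same counts and was not tested. Cyp4a10, Cyp4a31, Cyp4a32 and Cyp4a14 together held 78.2%, 79.6% and 84.8% of all Cyp4a counts in the iD1 libraries, against 35.5%, 66.7% and 40.8% in the vehicle libraries. Cyp4a12a and Cyp4a12b held the rest, and they were the larger part only in vehicle library 1 and the unnumbered vehicle library. All 6 Cyp4a members summed to 1601, 1394 and 2910 CPM in the iD1 libraries and 597, 826 and 648 CPM in the vehicle libraries. The iD1 libraries lay above the vehicle libraries in this sum, with a log2 fold change of 1.51 and an SE of 0.28 (2.85-fold, adjusted p = 0.00887).

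**Figure D3:**
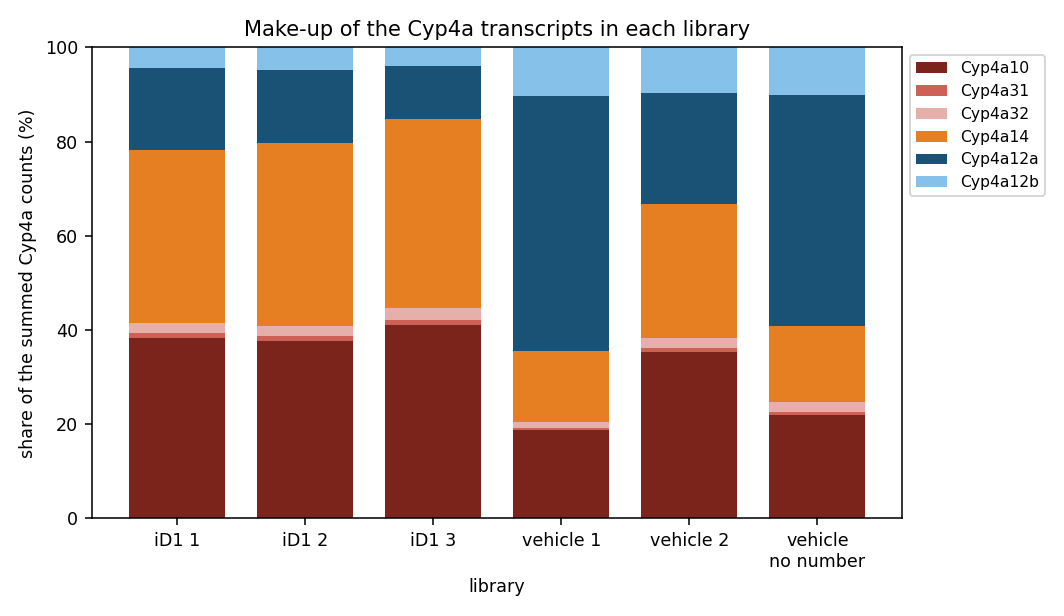
Share of the summed Cyp4a counts, in percent, that each of the 6 Cyp4a genes held in the 3 iD1 libraries (left) and the 3 vehicle libraries (right). Cyp4a12a and Cyp4a12b (blue shades) held 15.2% to 21.8% in iD1 and 33.3% to 64.5% in vehicle libraries.

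Cyp4f14, known in mice for the omega-hydroxylation of leukotriene B4 and of vitamin E, had 154, 106 and 153 CPM in the iD1 libraries and 175, 201 and 186 CPM in the vehicle libraries. Every iD1 library lay below every vehicle library, but the log2 fold change of -0.44 with an SE of 0.16 did not pass the threshold (1.36-fold lower, adjusted p = 0.0933). Cyp4f15, a close relative, had 116, 85.5 and 140 CPM in the iD1 libraries and 71.2, 88.3 and 74.0 CPM in the vehicle libraries. iD1 library 2 fell within the vehicle range and the other iD1 libraries above it, with a log2 fold change of 0.55 and an SE of 0.18 (adjusted p = 0.0665). Cyp4f13 had 50.3, 43.7 and 51.8 CPM in the iD1 libraries and 43.5, 41.3 and 35.8 CPM in the vehicle libraries. The groups were apart by a narrow margin, between iD1 library 2 and vehicle library 1, and the log2 fold change was 0.27 with an SE of 0.12 (adjusted p = 0.165).

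The groups also stood apart in the balance between Cyp4f14 and Cyp4f15. There were 1.33, 1.24 and 1.09 Cyp4f14 counts per Cyp4f15 count in the iD1 libraries, against 2.46, 2.28 and 2.52 in the vehicle libraries. The groups did not overlap in this ratio, and an exact permutation test of 3 libraries against 3 cannot give a two-sided p under 0.1. The ratio and the Cyp4f shares below were outside the planned results, and neither gene was called. How often ratios of other genes keep the groups apart was not computed, while 37.2% of single tested genes do. Cyp4f14 held 48.2%, 45.1% and 44.4% of the counts of the 3 Cyp4f members in the iD1 libraries and 60.4%, 60.8% and 62.9% in the vehicle libraries. Their sum was 321, 235 and 345 CPM in the iD1 libraries and 290, 331 and 296 CPM in the vehicle libraries, with overlapping groups and a log2 fold change of -0.02 with an SE of 0.17 (adjusted p = 0.940).

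Cyp4v3 is the mouse counterpart of human CYP4V2, a fatty acid hydroxylase whose loss causes a crystalline disease of the retina. It had 277, 255 and 398 CPM in the iD1 libraries and 405, 280 and 304 CPM in the vehicle libraries. The highest value in each group was nearly the same, and the log2 fold change was -0.09 with an SE of 0.21 (adjusted p = 0.806). The predicted gene Gm45753, which overlaps it, had 1.01, 0 and 1.57 CPM in the iD1 libraries and 2.53, 26.0 and 15.6 CPM in the vehicle libraries and was not called (adjusted p = 0.108). Its highest level was in vehicle library 2, where Cyp4v3 had 280 CPM.

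Per kilobase of the longest transcript, so that genes can be set side by side, the order of the levels differed between the groups. In iD1 livers Cyp4a10 averaged 368 ± 172 and Cyp4a14 307 ± 140 CPM per kilobase. Cyp4a10 was the higher of both in each iD1 library, at 291, 249 and 566 against 235, 216 and 468. Cyp4a12a at 114 ± 23.4, Cyp4v3 at 81.4 ± 20.2, Cyp4f14 at 62.1 ± 12.5 and Cyp4f15 at 52.5 ± 12.7 CPM per kilobase came next (SD, n = 3 each). In vehicle livers Cyp4a12a was first at 115 ± 29.9 CPM per kilobase, followed by Cyp4v3 at 86.6 ± 17.3, Cyp4a10 at 86.2 ± 45.7, Cyp4f14 at 84.4 ± 5.88 and Cyp4a14 at 57.4 ± 32.02 (SD, n = 3 each). From Cyp4a12a downward in iD1 livers, and over all of these in vehicle livers, neighbouring means differed by less than the sum of their SDs. These SDs are between libraries, while the genes were measured in the same libraries, so they do not settle the order. Cyp4a12a lay above Cyp4v3 in every library of both groups. Cyp4a12b, Cyp4a32 and Cyp4f13 averaged 34.8, 29.4 and 27.7 CPM per kilobase in iD1 livers and 28.9, 8.33 and 22.9 in vehicle livers, and Cyp4f15 averaged 35.9 in vehicle livers. Cyp4a31 was the lowest member in both groups, at 8.86 ± 3.94 in iD1 and 1.83 ± 0.861 CPM per kilobase in vehicle livers.

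**Figure D4:**
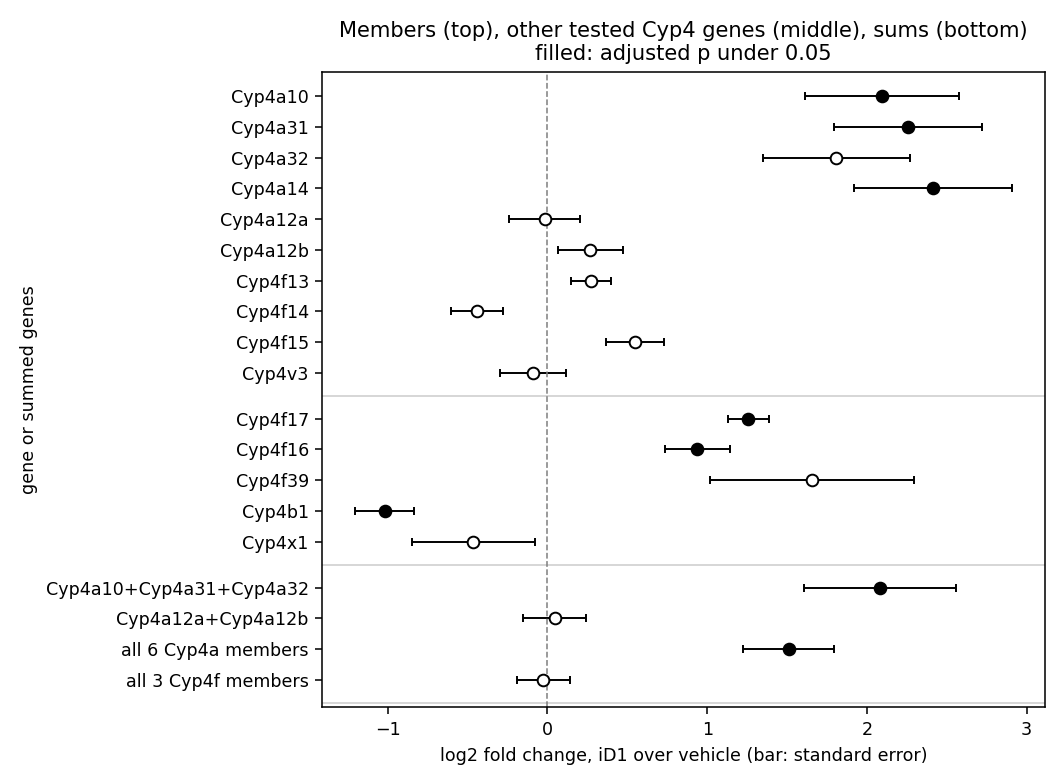
Log2 fold change of iD1 over vehicle with its SE for the 10 genes (top), the other 5 tested Cyp4 genes (middle) and the summed genes (bottom). Filled points have an adjusted p under 0.05. Cyp4a14, at 2.41, has the largest change among the members, Cyp4f17 is higher at 1.26, and Cyp4b1 is lower at -1.02.

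The table holds 16 further Cyp4 genes and pseudogenes, of which 6 had no count and 5 were tested. Cyp4f17 had 15.4, 13.6 and 14.8 CPM in the iD1 libraries and 6.42, 6.37 and 5.52 CPM in the vehicle libraries. These levels were tight within each group, and the log2 fold change of 1.26 with an SE of 0.13 passed the threshold (adjusted p = 5.52e-04). Cyp4f16 had 4.29, 3.88 and 5.55 CPM in the iD1 libraries and 2.57, 2.38 and 2.20 CPM in the vehicle libraries, a log2 fold change of 0.94 with an SE of 0.20 (adjusted p = 0.0132). Without iD1 library 3 or the unnumbered vehicle library the adjusted p for Cyp4f16 was 0.0531 or 0.0536. Cyp4b1, known for activating the lung toxin ipomeanol in rabbits, had 4.33, 4.75 and 6.68 CPM in the iD1 libraries and 9.47, 11.6 and 10.8 CPM in the vehicle libraries, and fell by 1.02 on the log2 scale with an SE of 0.18 (adjusted p = 0.00651). Cyp4f39, which makes the very long omega-hydroxy acids of skin ceramides, and Cyp4x1 were near the limit of detection and were not called, with log2 fold changes of 1.65 with an SE of 0.64 and -0.46 with an SE of 0.39.

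Along both clusters, runs of neighbouring genes shared a direction, and other neighbours differed. On chromosome 4, Cyp4a14, Cyp4a10, Cyp4a31 and Cyp4a32 follow each other with log2 fold changes of 2.41, 2.09, 2.26 and 1.81. The first 3 were called, and Cyp4a32 missed the threshold (adjusted p = 0.0511). Reads may be divided between Cyp4a10, Cyp4a31 and Cyp4a32, so their shared direction does not come from separate observations. Next to Cyp4a32 lies Cyp4b1, which fell, and Cyp4a12b (not called) lies on the other side of the run. Of 8 tested genes that flank the cluster, Mob3c rose by 0.59 and the other 7 were not called. The nearest on each side were Pdzk1ip1, at -0.84 (adjusted p = 0.0738), and Efcab14, at -0.0024 (adjusted p = 0.992). On chromosome 17, Cyp4f39, Cyp4f17, Cyp4f16 and Cyp4f15 follow each other on the plus strand. Their log2 fold changes were 1.65, 1.26, 0.94 and 0.55, and of these genes only Cyp4f17 and Cyp4f16 were called. Cyp4f39 had 1 to 27 counts per library. Whether neighbours change together more than other genes was not tested. Past the zinc finger genes Zfp871, Zfp799 and Zfp870, none of them called, lie Cyp4f14 and Cyp4f13 on the minus strand at -0.44 and 0.27. Of 13 tested genes that flank this cluster, Zfp955a fell by 0.88 (adjusted p = 0.0365) and Olfr63 by 1.21 (adjusted p = 0.0151), and the other 11 were not called.

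Single libraries decided several of these calls. Cyp4a10 passed the threshold in 1 of the 6 fits that each left out 1 library, the one without vehicle library 2 (adjusted p = 0.0116), and its log2 fold change lay between 1.64 and 2.61. Cyp4a14 passed in 2, without iD1 library 1 (adjusted p = 0.0422) and without vehicle library 2 (adjusted p = 0.0061), with log2 fold changes of 1.97 to 2.97 over all 6. Cyp4a31 passed in 4, and missed without iD1 library 2 (adjusted p = 0.0531) and without the unnumbered vehicle library (adjusted p = 0.0966). Cyp4f15 passed only without iD1 library 2, the iD1 library in which it was lowest (adjusted p = 0.0206). The sum of all 6 Cyp4a members passed in all 6 such fits, with adjusted p-values of 0.0067 to 0.0456, and so did Cyp4f17 and Cyp4b1.

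**Figure D5:**
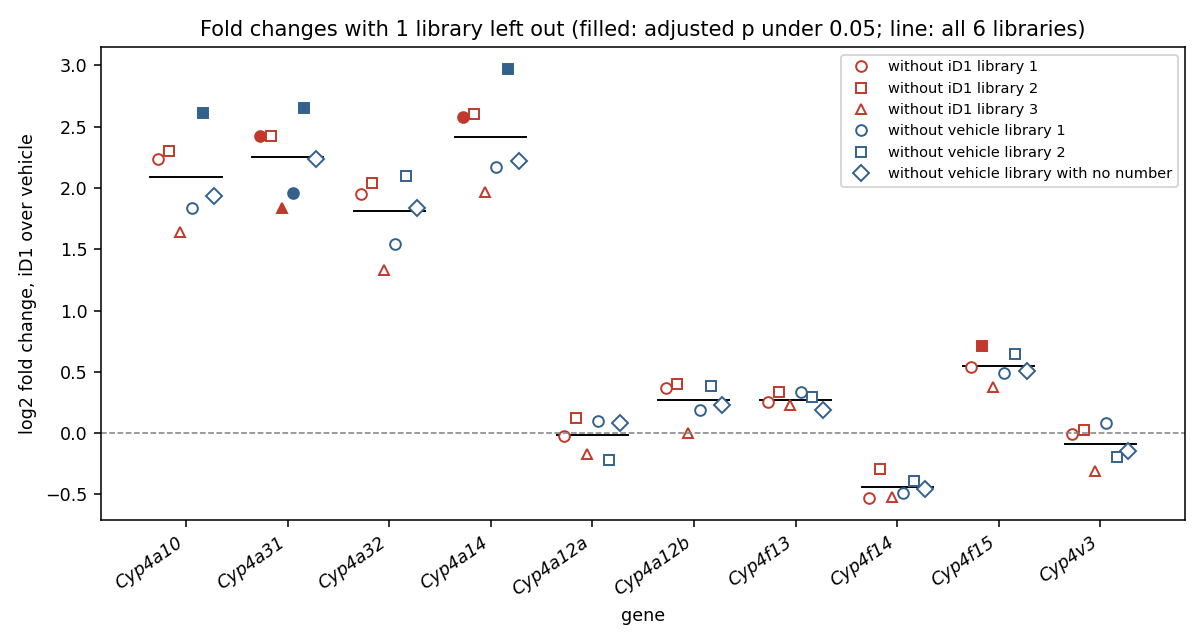
Log2 fold change of iD1 over vehicle for each of the 10 genes when 1 library was left out, an iD1 library (red) or a vehicle library (blue), against the value from all 6 libraries (line). Filled markers have an adjusted p under 0.05. The values of Cyp4a10, Cyp4a31, Cyp4a32 and Cyp4a14 are all at 1.33 or above, while those of Cyp4a12a, Cyp4a12b and Cyp4v3 fall on both sides of 0.

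The members varied together in part. Over the 6 libraries, which fall into the 2 groups and share their scaling, Pearson's r of log2 CPM was 0.997 between Cyp4a10 and Cyp4a14, 0.925 between Cyp4a10 and Cyp4f15, and -0.112 between Cyp4a10 and Cyp4a12a. Cyp4a12a was closest among the members to Cyp4v3, at 0.756. Of 11103 genes compared, those most like Cyp4a14 were Ctif, at 0.997, and Tmem131, at 0.996. Ctif had 42.3, 40.9 and 55.2 CPM in the iD1 libraries and 17.8, 25.3 and 18.6 CPM in the vehicle libraries. It was picked by this likeness, so that sharing its highest libraries with Cyp4a14 follows from the choice. The most alike were Srsf7 (0.970) and Arl6ip1 (0.955) for Cyp4a12a, Lbh (0.996) and Zfp41 (0.996) for Cyp4f14, and Ugt3a1 (0.953) and Ccnq (0.949) for Cyp4v3. With so many genes and 6 libraries these are descriptions only.

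Of 31 genes listed for PPAR-alpha, its partners and its classical targets outside Cyp4, 14 were called higher and 0 lower. Of all tested genes, 8.42% were called higher and 8.3% lower. The median log2 fold change of the list was 0.50. The 14 included the fasting hormone Fgf21, the lipase inhibitor Angptl4 and the carnitine transferase Cpt1a, at 2.99, 2.47 and 1.56 on the log2 scale. Fgf21 was at a low level, with a mean of 4.44 CPM in iD1 and 0.57 CPM in vehicle livers (13 to 27 counts per vehicle library). The mitochondrial carrier Ucp2 was also among the 14. Ucp2 averaged 27.7 ± 2.495 CPM in iD1 and 12.3 ± 2.16 CPM in vehicle livers (SD, n = 3 each), a log2 fold change of 1.16 with an SE of 0.15 (adjusted p = 0.00127). Ppara itself, named after its value was seen, averaged 85.2 CPM in iD1 and 55.2 CPM in vehicle livers, a log2 fold change of 0.63 with an SE of 0.16 (adjusted p = 0.0299). With iD1 library 3 left out 6 were called, with vehicle library 2 left out 5, and with the unnumbered vehicle library left out 5. Scaling by library size alone gave 8 higher and 0 lower. The 17 genes of the list not called in the main fit included Fabp1, named after its value was seen, at -0.20. Genes of peroxisomal oxidation were placed in the list that follows, where 4 were called higher and 1, Acot3, lower. The counts for the PPAR-alpha list, with 0 lower, depend on that division.

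Of 25 genes for the steps after the hydroxylase and for the oxidation of dicarboxylates in peroxisomes, 4 were called higher and 1 lower. Calls in either direction made up 16.7% of all tested genes, 8.42% higher and 8.3% lower. The list's median log2 fold change was 0.04. Slc27a2, a very-long-chain acyl-CoA synthetase, averaged 1446 ± 276 CPM in iD1 and 763 ± 47.4 CPM in vehicle livers (SD, n = 3 each), 0.92 higher on the log2 scale. Acot3, a peroxisomal thioesterase, fell, with 8.25, 7.04 and 6.37 CPM in the iD1 libraries and 12.1, 21.2 and 16.3 CPM in the vehicle libraries. Aldh3a2, a fatty aldehyde dehydrogenase of this pathway, and Ehhadh, the bifunctional enzyme, were named after their values were seen and had log2 fold changes of -0.07 and -0.03. The reductase Decr2 rose by 0.57, a call that was lost without any one of 4 libraries, iD1 library 3 or any vehicle library. When iD1 library 3, vehicle library 2 or the unnumbered vehicle library was left out, 2 of the list were called higher, and with library-size scaling 2 were higher and 3 lower.

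Of 13 P450 redox partners and heme genes, 2 were called higher and 2 lower, against 8.42% and 8.3% of all tested genes. The median log2 fold change of the list was 0.07. Por, the reductase that supplies electrons to all microsomal P450 enzymes, had 713, 888 and 919 CPM in the iD1 libraries and 149, 342 and 277 CPM in the vehicle libraries. The groups were far apart, and the log2 fold change of 1.71 with an SE of 0.28 passed the threshold (adjusted p = 0.00572). Cyb5b, the cytochrome b5 of the outer mitochondrial membrane, averaged 237 ± 14.7 CPM in iD1 and 446 ± 47.6 CPM in vehicle livers (SD, n = 3 each) and fell by 0.91. The heme oxygenase Hmox1 rose by 4.05 on the log2 scale, with 67.5, 310 and 275 CPM in the iD1 libraries and 9.67, 15.3 and 14.4 CPM in the vehicle libraries, a call that held of the 6 leave-out fits only in the one without iD1 library 1. Ppox, an enzyme of heme synthesis, fell by 0.57, a call lost without iD1 library 2, iD1 library 3, vehicle library 1 or vehicle library 2.

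Of 18 genes of leukotriene and eicosanoid turnover, 13 were tested, and edgeR's test called 0 in either direction. At an unadjusted p of 0.05, 1 was higher and 2 were lower, limma-voom called 0, and DESeq2 called 1 higher and 1 lower. The median log2 fold change was -0.15. The epoxide hydrolase Ephx2 averaged 760 ± 74.1 CPM in iD1 and 559 ± 63.1 CPM in vehicle livers (SD, n = 3 each), and the epoxygenase Cyp2j5 427 ± 33.1 and 489 ± 45.2 CPM in iD1 and vehicle livers.

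Of 20 male-biased liver genes outside Cyp4, listed because Cyp4a12a is one of that class, 0 were called higher and 2 lower. Among all tested genes, 8.42% were called higher and 8.3% lower. The median log2 fold change of the 20 was 0.10. Nudt7, a peroxisomal CoA hydrolase, fell by 0.96, and the fatty acid hydroxylase Cyp2u1 fell by 1.53, a call lost without iD1 library 3 alone. Of 19 female-biased genes, 13 were tested, 0 were called higher and 1, Acot3, was called lower, with a median of 0.17. Of 12 genes of growth hormone signalling to the male pattern, 1 was called higher and 0 lower, with a median of -0.18. That gene, the hepatocyte factor Hnf4a, rose by 0.78, a call that held of the 6 leave-out fits only in the one without iD1 library 1.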

How the data were processed

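For 6 liver libraries, made with a stranded mRNA kit per the labels' protocols, the authors deposited estimated counts of each gene with no scaling. Not given in the sources used here were the aligner, quantifier, build and annotation. Per library, 22.6% to 27.7% of values were not whole, and all were rounded before testing. Symbols were found for 34582 of 34866 identifiers. Coordinates and coding sequences come from GENCODE M21 on GRCm38, which holds 93.4% of the versioned identifiers. Genes were kept with filterByExpr (minimum count 10, minimum total 15), scaled by TMM and compared with edgeR's robust quasi-likelihood F test (edgeR 4.0.16, R 4.3.3), two-sided, with Benjamini-Hochberg adjustment over 13718 genes and a threshold of 0.05. SEs were taken as the absolute log2 fold change over the root of F. CPM were computed on TMM-scaled totals, and an SD is that of 3 libraries. Counting error is covered by these SDs and not given apart. The fit was tested on simulated counts.

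The members and the gene lists were chosen with earlier results of these data known. Named were all 10 members and the other tested Cyp4 genes. Of each list other than the cell markers, up to 4 called genes were named by smallest p, or up to 2 by highest CPM where none was called. For Cyp4a14, Cyp4a12a, Cyp4f14 and Cyp4v3, 2 genes of highest correlation were named. A gene that this rule takes is not reported here. Other genes are said to be named after their values were seen, or are flanking genes. The cell markers Fcgr2b, Lrat, Sox9 and Krt19 were also named after their values were seen. The lists also covered zonation, vitamins K and E, and markers of other cells. Alternatives were other scaling factors, other filters, DESeq2 1.42.0, limma-voom (limma 3.58.1), a threshold of 0.01, non-robust shrinkage, a test against a fold of 1.2, thinning, a replicate block, summed copies and leaving out each library. No pair of libraries agreed within sampling noise.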

Additional observations from a re-analysis of the deposited data

How the results depend on the processing

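Over the alternatives run, Cyp4a10, Cyp4a31, Cyp4a32 and Cyp4a14 kept a positive fold change, and what varied was whether they passed the threshold. The cause of these shifts was not tested, other than fewer libraries or genes where the setting sets them. The number of genes called was 1278 in the test against a fold of 1.2, 825 at a threshold of 0.01, and 1212 to 2574 with 1 library left out. The members called higher were 5 with DESeq2, 1 with no filter but 1 count, 0 at a threshold of 0.01, and 0 to 3 with 1 library left out. The members called lower were 1, Cyp4f14, with scaling by library size alone, which moved the median of all genes to -0.20, and 0 in each fit without a library. Genes called higher made up 50.4% of calls, but 38.4% under upper-quartile scaling and 24.1% under library size alone. The summed Cyp4a10, Cyp4a31 and Cyp4a32 missed the threshold with no filter (log2 fold change 2.06, adjusted p = 0.129) and at 0.01 (2.08), and ranged from 1.63 to 2.58 with 1 library left out, passing only without vehicle library 2. The summed Cyp4a12a and Cyp4a12b changed sign, at -0.030 with upper-quartile factors, -0.15 with library size alone and -0.13 to 0.18 with 1 library left out. With 1 library left out, the Cyp4f sum ranged from -0.14 to 0.12, Cyp4a12a from -0.22 to 0.12, Cyp4a12b from -0.0032 to 0.40 and Cyp4v3 from -0.31 to 0.085, none of them called.

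A replicate block was fitted on the libraries numbered 1 and 2 in both groups, and the same 4 libraries without the block were added after seeing the data, as were the counts of the gene lists under each alternative. Same-numbered libraries deviated together with r = 0.169 for number 1 and r = -0.127 for number 2. Libraries of unlike number had r = 0.0474 and r = -0.0787. With so few libraries these values cannot show whether the numbers pair the samples. The block gave 768 calls, and the 4 libraries without it gave 521, with 0 members called higher in both. The copy sum of Cyp4a10, Cyp4a31 and Cyp4a32 was 1.65 with the block (adjusted p = 0.136) and 1.49 without it (adjusted p = 0.159). The sum of all 6 Cyp4a members was 1.07 without the block (adjusted p = 0.0737). The Cyp4a12 sum was -0.047 with the block and -0.058 without it, and Cyp4a12b was -0.024 and -0.037.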

Other observations

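Genes that mark the zones of the liver lobule moved within each zone in both directions. Of 14 pericentral genes, 2 were called higher and 1 lower, with a median log2 fold change of 0.26. The share over all tested genes was 8.42% higher and 8.3% lower. The glutamate carrier Slc1a2 averaged 133 ± 6.70 CPM in iD1 and 75.6 ± 11.6 CPM in vehicle livers (SD, n = 3 each), a log2 fold change of 0.81 with an SE of 0.14 (edgeR, adjusted p = 0.00467). Cyp2e1, a P450 of ethanol metabolism, rose by 0.90, a call lost without iD1 library 3 or any one vehicle library. The Wnt receptor partner Lgr5 fell by 1.36, a call lost without vehicle library 2. Lgr5 was at a low level, with a mean of 0.99 CPM in iD1 and 2.53 CPM in vehicle livers. Of 14 periportal genes, 3 were called higher and 1 lower, with a median of 0.17. The gluconeogenic enzyme Pck1 rose by 2.08 on the log2 scale, the serine dehydratase Sds by 1.83 and its relative Sdsl by 0.94, and the adhesion protein Cdh1 fell by 1.49.

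Of 6 genes of vitamin K and vitamin E handling, vitamins that Cyp4f enzymes also act on, 1 was called higher and 1 lower, with a median of 0.07. The share of all tested genes, for this list and the markers below, was 8.42% higher and 8.3% lower. The vitamin K-dependent carboxylase Ggcx fell by 0.68, a call lost without iD1 library 3 or vehicle library 2. The quinone reductase Nqo1 rose by 0.62, a call lost without iD1 library 2, iD1 library 3, vehicle library 1 or the unnumbered vehicle library. Among markers of other cells, 1 of 7 endothelial genes (Fcgr2b) and 1 of 8 stellate cell genes (Lrat) were called lower. Of 5 tested cholangiocyte genes Sox9 was called higher and Krt19 lower. Krt19 was at a low level, with a mean of 0.18 CPM in iD1 and 1.22 CPM in vehicle livers. The endothelial call was lost when any one vehicle library was left out, and a cholangiocyte gene was called higher in 1 of the 6 leave-out fits, the one without iD1 library 3. The stellate cell list had 1 or 2 genes called lower and the cholangiocyte list 1 in each of these fits. Of 7 T and B lymphocyte genes 2 were tested, and edgeR's test called 0 of them, with 1 lower at an unadjusted p of 0.05.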
